A study of Bos indicus with 8 samples.

Results

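C27H8orf4, COBLL1 and AMIGO2 are bovine genes whose transcripts were far lower in cumulus cells cultured with adenosine than in cells cultured without it. They were taken up for that difference, so the ratios of adenosine over control given here describe the genes that were chosen and carry no test. The rule took every probe whose platform symbol is C27H8orf4 (1 probe), COBLL1 (3 probes) or AMIGO2 (2 probes), which gave 6 of the 43794 probes on the array and 3 of its 15229 named genes. All 6 passed the detection filter, as did 31948 probes in all.

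Cumulus cells are the somatic cells around the oocyte, here from cattle labelled Bos indicus. Complexes of oocyte and cumulus from follicles of 3 to 6 mm, collected at a slaughterhouse, were cultured for 6 h. Control and adenosine cultures both received recombinant human FSH at 0.5 µg/ml and 17ß-oestradiol at 1 µg/ml in HEPES-buffered tyrode lactate medium with gentamicin, pyruvic acid at 0.2 mM and fetal bovine serum at 10%, and the adenosine cultures received 3 mM adenosine as well. Each of 4 adenosine pools, with 10 per pool in the labels, shared 2 two-colour arrays of exchanged dyes with its same-numbered control pool, so there were 8 arrays and 4 pool pairs. The labels call the pools biological replicates and do not say whether they came from separate animals. P-values therefore measure the spread between these pools, which may in part be technical, and in pooled cells fewer expressing cells and less RNA per cell cannot be told apart.

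C27H8orf4 is the bovine counterpart of the human gene once called C8orf4 and now TCIM, which encodes a small protein, also known as TC-1. In human cells TC-1 binds Chibby, an antagonist of beta-catenin, and so favours Wnt target transcription. COBLL1 encodes a relative of cordon-bleu, a protein that assembles actin filaments through WH2 domains. AMIGO2 encodes a membrane protein with leucine-rich repeats and an immunoglobulin domain that mediates adhesion between cells, and in rat neurons it was described as a survival gene induced by depolarisation. Adenosine acts on cells through G protein-coupled receptors that raise or lower cyclic AMP, the messenger of FSH, and through uptake and conversion to nucleotides.

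On 7 of the arrays between 71.1% and 87.4% of probes exceeded the detection level, which lay 2 SD above the mean of negative control spots, in each channel. For pool pair 3 the array that held adenosine in Cy3 stood apart, with 45.4% detected for adenosine and 41.3% for control. Mean ratios with pair 3 read from its other array alone are given where the probes are summarised. For the third COBLL1 probe the ratio of pair 3 itself on that array is given. Of 14 markers of cumulus and granulosa cells 13 were measured, and the log2 of their summed level lay between 16.11 and 16.35 in control pools and between 16.24 and 16.53 in adenosine pools. Such a sum mainly follows its brightest members. Of the 13 genes 5 were higher and 3 lower with adenosine (limma adjusted p under 0.05), with a median log2 ratio of -0.31. Over all genes 21.7% were higher and 20.8% lower. The same sums ran from 9.52 to 10.06 and from 9.53 to 9.64 for 8 oocyte markers, from 11.85 to 13.19 and from 12.63 to 13.66 for 6 theca markers, and from 9.15 to 10.77 and from 9.11 to 10.37 for 5 immune markers. For 6 endothelial markers they ran from 9.13 to 9.27 and from 8.92 to 8.95, and for 6 red cell markers from 9.09 to 9.12 and from 9.07 to 9.18, so only the endothelial sums did not overlap between the groups. Both of these sets of sums were low, and 1 endothelial marker was lower at an adjusted p under 0.05 (limma) and none higher. Among kept probes 15.1% had every control pool above every adenosine pool. CSF1R and TYROBP of the immune list and PECAM1 of the endothelial list were above the detection level on no array. The part of other cell types in the results was not tested.

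The C27H8orf4 probe (EMBV3_18515) was bright in every control pool and dim in every adenosine pool. With control in Cy3 its raw intensity was 34865 in pool 1, 35856 in pool 2, 28271 in pool 3 and 35820 in pool 4. The adenosine pools on the same arrays, read in Cy5, gave 219, 78.8, 421 and 81.0 in that order. Pools 1 and 3 with adenosine thus held more signal than pools 2 and 4. The second set of arrays, with the dyes exchanged, gave control intensities of 18335, 17475, 13896 and 20398 for pools 1 to 4. The adenosine intensities there were 277, 99.4, 484 and 107, so the order of the adenosine pools was the same on both slides. All 8 adenosine readings of this probe lay above the detection level of their channel, which was between 30.2 and 39.2 in Cy5 and between 72.9 and 96.5 in Cy3.

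Scaled to log2 levels per pool (loess within arrays and Aquantile between them, mean of both arrays), C27H8orf4 stood at 14.32, 14.36, 14.07 and 14.43 in control pools 1 to 4 and at 8.29, 6.97, 9.0 and 7.08 in the adenosine pools. The control pools spread little (14.30 ± 0.16, SD, n = 4 pools) and the adenosine pools more (7.84 ± 0.98). The pair ratios were -6.03, -7.39, -5.07 and -7.35, a mean log2 ratio of -6.46 ± 1.12 (SD, n = 4 pool pairs), or 88.0-fold lower with adenosine. It was -6.45 with pair 3 read from its other array alone. The lowest control pool lay 5.07 log2 units above the highest adenosine pool. Groups that do not overlap, with control higher, were found for 15.1% of all kept probes, and 37.1% passed the adjusted test of this contrast in either direction (18.4% lower with adenosine). Since these genes were chosen on this contrast, nothing is read from their place among them.

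In control, C27H8orf4 reached a large part of the highest probe intensity on its array in Cy3 and a smaller part in Cy5. Its control intensity was between 71.9% and 92.3% of the highest probe intensity of the same array and channel in Cy3, and between 35.5% and 52.8% in Cy5. The files carry no saturation flag, and whether the Cy3 readings were compressed was not tested. The ratio was -6.14 ± 0.96 (SD, n = 4 arrays) with control in Cy3 and -6.78 ± 1.29 with control in Cy5.

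**Figure D1:**
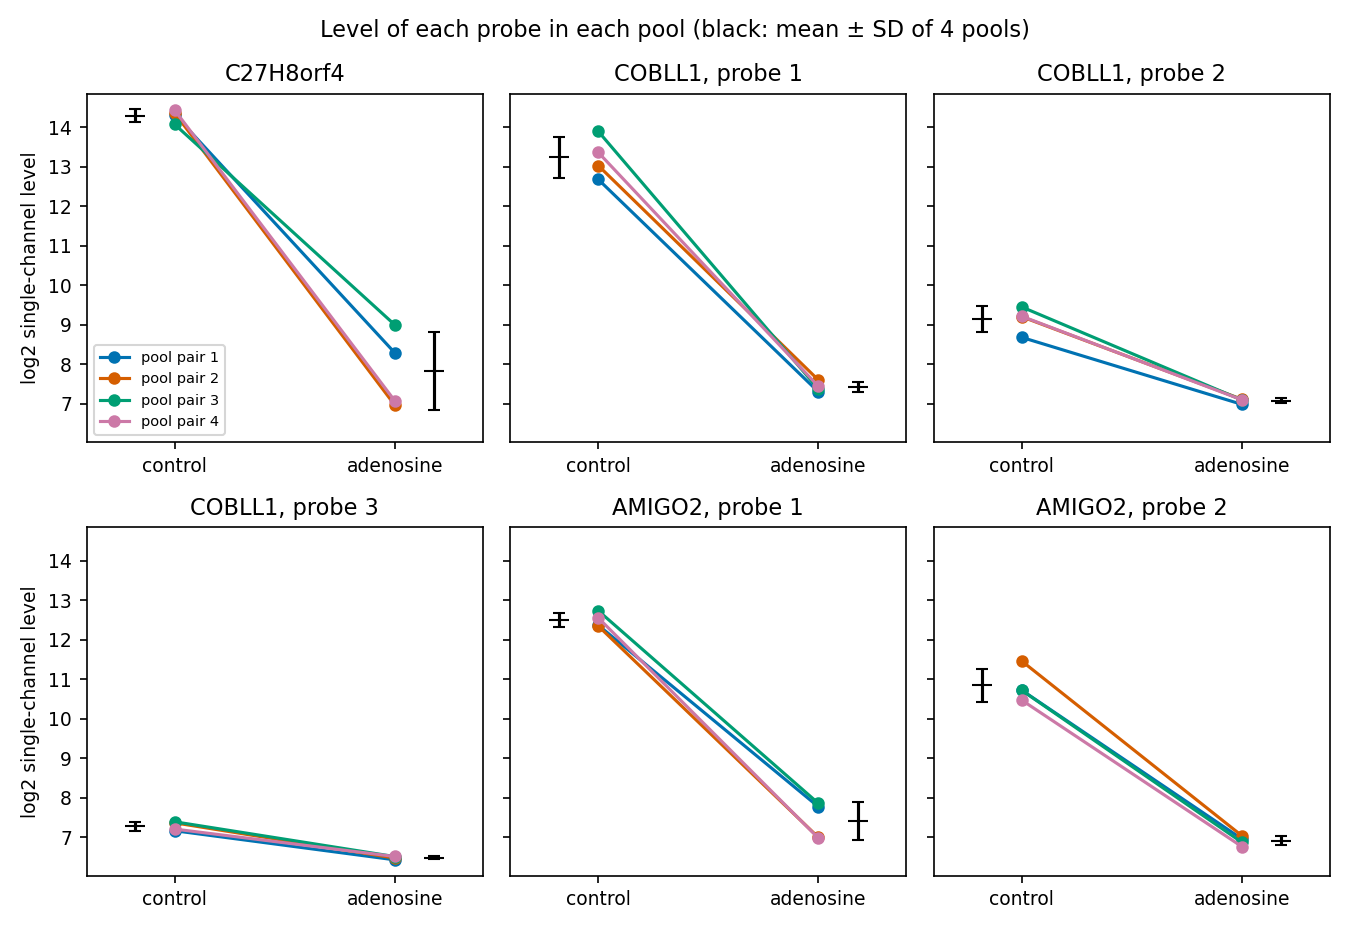
Log2 single-channel level (y axis) of the 6 probes in control and adenosine pools (x axis); coloured lines join the pools of a pair and black bars show the mean ± SD of 4 pools. In every panel all control pools lie above all adenosine pools, by 5.07 log2 units at the closest for C27H8orf4 and by 0.65 for the third COBLL1 probe.

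COBLL1 was read by 3 probes, and they differed widely in the size of the fall and in their control level. From brightest to dimmest the mean log2 level was 13.24, 9.14 and 7.28 in control and 7.44, 7.08 and 6.48 with adenosine. The dimmer probes thus started from a lower control level, and whether that bears on the size of their falls was not tested. The brightest (EMBV3_34204) gave control intensities of 11547, 14081, 25383 and 19408 in Cy3 for pools 1 to 4. Its adenosine intensities in Cy5 were 74.6, 90.8, 108 and 89.7. Unlike C27H8orf4, this probe varied mainly among the control pools, with pool 3 highest and pool 1 lowest, while the adenosine pools lay close together. The arrays with the dyes exchanged gave the same order of control pools, at 5792, 6827, 12652 and 8784, against adenosine readings of 173, 198, 163 and 164.

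On the log2 level scale this COBLL1 probe stood at 12.68, 13.03, 13.90 and 13.37 in control pools 1 to 4 and at 7.31, 7.61, 7.38 and 7.45 in adenosine pools. The SD was 0.52 among control pools and 0.13 among adenosine pools (n = 4 each). The pair ratios were -5.37, -5.42, -6.52 and -5.92, with a mean of -5.81 ± 0.53 (SD, n = 4), also with pair 3 from its other array alone. Pair 3 had the steepest ratio for this COBLL1 probe and the shallowest for C27H8orf4.

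The second COBLL1 probe (EMBV3_07886) gave control intensities of 632, 880, 1069 and 946 in Cy3 and adenosine intensities of 60.4, 65.4, 79.0 and 75.1 in Cy5. Its levels were 8.68, 9.21, 9.45 and 9.22 in control and 6.99, 7.12, 7.10 and 7.10 with adenosine, so the control pools had the same highest and lowest members as for the brightest probe. The mean log2 ratio was -2.06 ± 0.27 (SD, n = 4), with pairs at -1.69, -2.09, -2.35 and -2.11, and -2.02 with pair 3 from its other array alone. Against an adenosine detection level of at least 30.2 in Cy5 and 72.9 in Cy3, the adenosine readings of this probe were at most 79.0 and 142.

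The third COBLL1 probe (EMBV3_39452) was dim in both groups. With control in Cy3 it read 225, 261, 256 and 237 in control and 38.0, 38.1, 47.4 and 47.4 with adenosine. With control in Cy5 the control readings were 90.4, 109, 113 and 101 and the adenosine readings 94.7, 95.9, 95.2 and 93.1, of which that of pool 3 did not exceed its detection level of 96.5. Its adenosine signal was thus close to the detection level on every array, at 38.0 against a level of 30.2 for pool 1 in Cy5 for example. The levels were 7.17, 7.37, 7.39 and 7.21 in control and 6.43, 6.48, 6.51 and 6.52 with adenosine, which did not overlap, and the mean ratio was -0.80 ± 0.10 (SD, n = 4). Pair 3 stood at -0.880 over both arrays and at -0.881 on its other array alone. The mean over the 3 COBLL1 probes was -2.89 ± 0.27, against -5.81 for the brightest one. The parts of the transcript that the probes read were not analysed here.

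**Figure D2:**
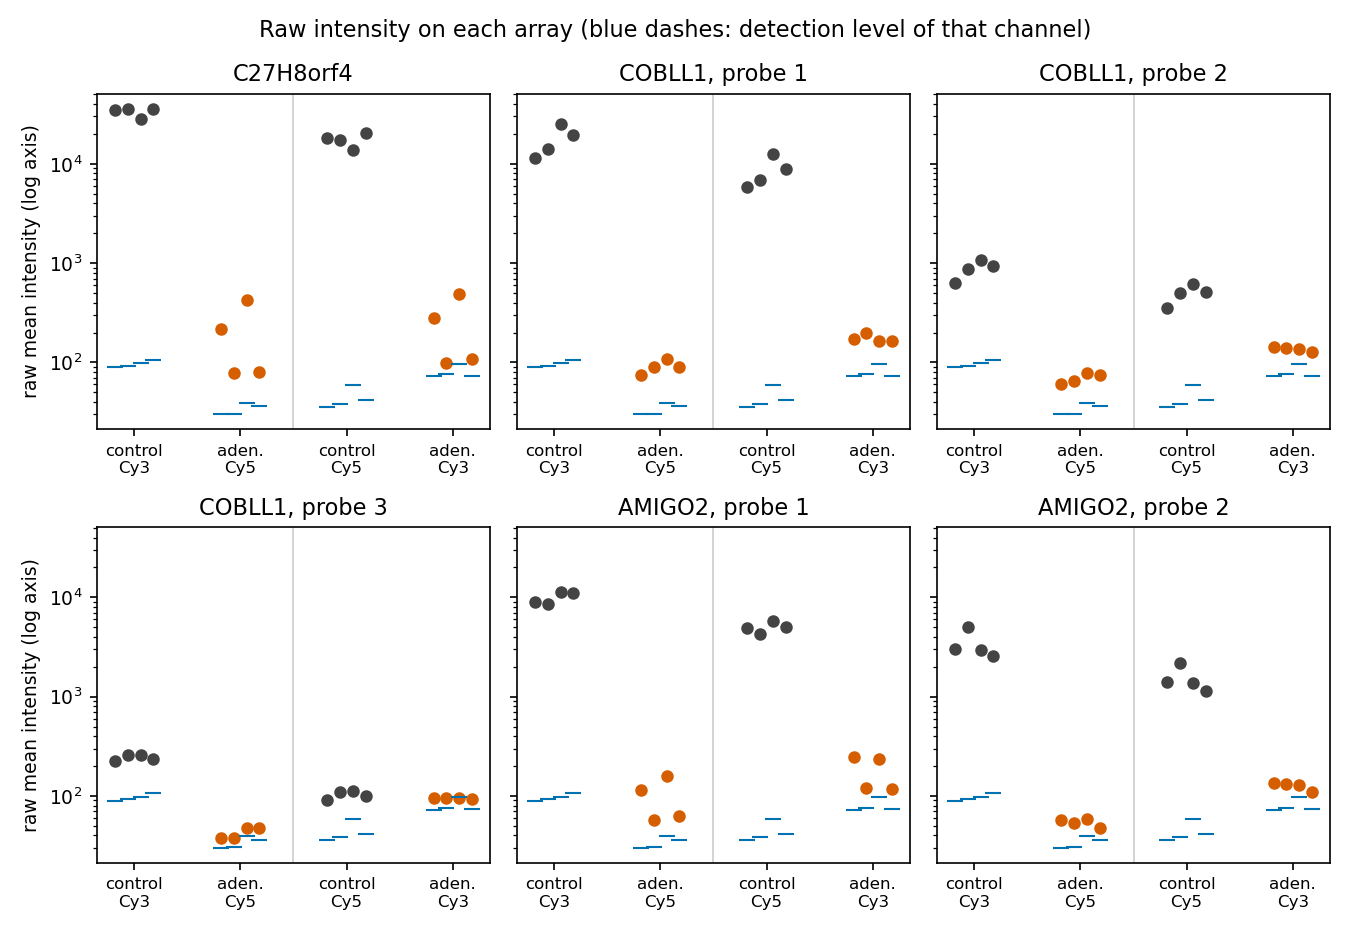
Raw mean intensity of each spot (y axis, log scale) for the 6 probes, by treatment and dye (x axis), with the 4 arrays of a slide as 4 points in the order of pools 1 to 4 and blue dashes at the detection level of that array and channel. The adenosine readings of the third COBLL1 probe sit close to the dashes, while those of C27H8orf4 reach 421 in Cy5 and 484 in Cy3 in pool 3.

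AMIGO2 was read by 2 probes, which both showed far less signal with adenosine. The brighter (EMBV3_28819) had control intensities of 8972, 8662, 11322 and 11078 in Cy3 for pools 1 to 4 and adenosine intensities of 113, 57.3, 158 and 62.5 in Cy5. With the dyes exchanged the control readings were 4865, 4272, 5806 and 5075 and the adenosine readings 244, 120, 235 and 119. On both slides adenosine pools 1 and 3 were above pools 2 and 4, the same pools that were high for C27H8orf4.

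Levels of the brighter AMIGO2 probe were 12.37, 12.35, 12.74 and 12.56 in control and 7.78, 7.0, 7.86 and 6.99 with adenosine. The pair ratios were -4.59, -5.35, -4.87 and -5.57, with a mean of -5.10 ± 0.44 (SD, n = 4), or 34.2-fold lower, and of -5.09 with pair 3 from its other array alone. The lowest control pool was 4.49 log2 units above the highest adenosine pool.

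The second AMIGO2 probe (EMBV3_23904) read 2992, 4972, 2969 and 2563 in control in Cy3 and 57.2, 53.8, 58.2 and 47.6 with adenosine in Cy5. In the exchanged orientation the control pools read 1420, 2158, 1358 and 1143 and the adenosine pools 136, 133, 129 and 108. Control pool 2 was the highest here on both slides, whereas it was the lowest of the control pools on the brighter probe. The adenosine levels of 6.96, 7.04, 6.88 and 6.77 did not show the higher values of pools 1 and 3 either. These readings were dim, against detection levels of 30.2 to 39.2 in Cy5 and 72.9 to 96.5 in Cy3. Whether the order of the adenosine pools exceeds the noise was not tested. The mean ratio was -3.93 ± 0.33 (SD, n = 4), with pairs at -3.76, -4.42, -3.84 and -3.70, and -3.97 with pair 3 from its other array alone. The 2 probes of AMIGO2 therefore shared the direction and differed in how the pools ranked, and their mean was -4.51 ± 0.31.

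Ratios of dim readings depended on how background was treated. The normexp background correction added an offset of 50 to both channels, which pulls ratios towards 0 where a channel is dim. With an offset of 0 the log2 ratio was -7.20 for C27H8orf4, -6.54, -2.75 and -1.53 for the COBLL1 probes from brightest to dimmest, and -5.89 and -4.99 for the AMIGO2 probes. The third COBLL1 probe moved most in proportion, from -0.80 to -1.53. In the authors' normalized values the means were -6.91 for C27H8orf4, -6.05, -2.20 and -1.29 for COBLL1 and -5.46 and -4.47 for AMIGO2. The order of the 6 probes was the same under the 3 treatments.

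**Figure D3:**
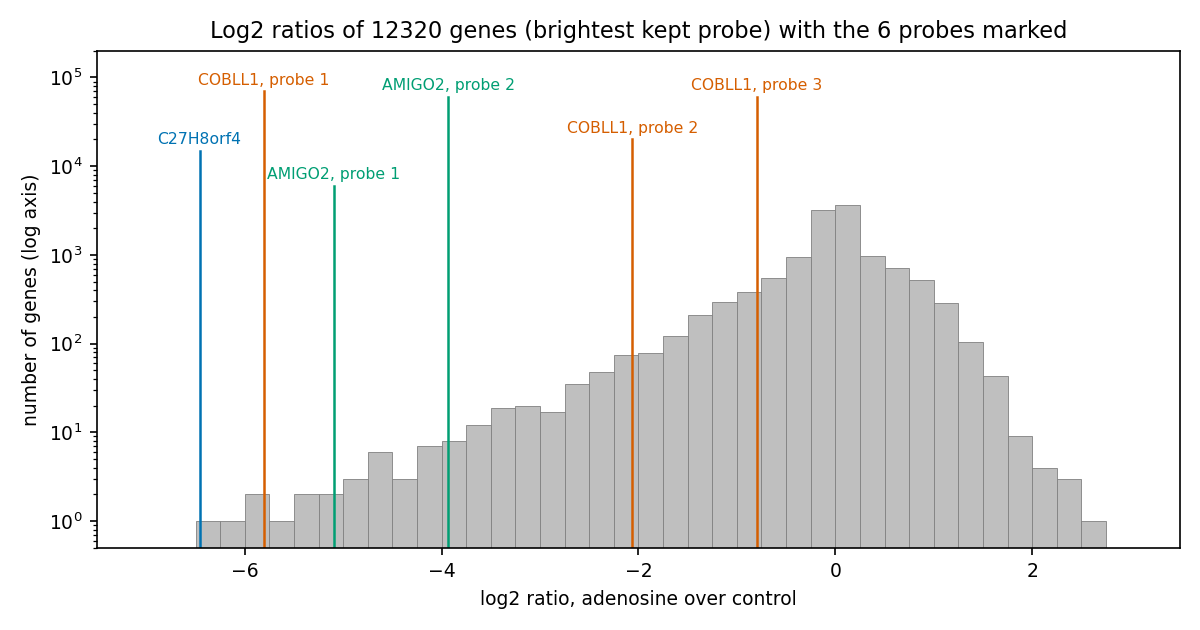
Number of genes (y axis, log scale) by log2 ratio of adenosine over control (x axis) for 12320 named genes read from the brightest kept probe, with the 6 probes as coloured lines. The brightest probes of the 3 genes lie in the far left tail at -6.46, -5.81 and -5.10, and the third COBLL1 probe at -0.80 near the bulk of the genes.

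Among 12320 genes C27H8orf4 had the lowest ratio, COBLL1 the 4th lowest and AMIGO2 the 9th lowest. BMP2, a secreted bone morphogenetic protein, lay next to C27H8orf4 at -6.25, and PLIN2, which coats lipid droplets, just below COBLL1 at -5.82. AMIGO2 stood between GCH1 at -5.24, the first enzyme of tetrahydrobiopterin synthesis, and the hexokinase HK2 at -4.92. Read as the mean of its kept probes, COBLL1 stood at -2.89.

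Whether the size of the ratio depended on the dye orientation is a question the choice of genes did not use, and it was tested with limma on the difference between the 2 ratios of each pool pair (adenosine in Cy5 minus adenosine in Cy3), divided by 2. Since each slide held 1 orientation, dye and slide cannot be told apart. C27H8orf4 was steeper with adenosine in Cy3 in 4 of 4 pairs (difference 0.65, adjusted p = 0.0013), as were the second COBLL1 probe (0.47, adjusted p = 9.57e-05) and the brighter AMIGO2 probe (0.23, adjusted p = 0.0134). The third COBLL1 probe passed too, steeper in 3 of 4 pairs (0.12, adjusted p = 0.0348). The brightest COBLL1 probe had ratios of -5.77 and -5.84 (difference 0.07, adjusted p = 0.27) and the second AMIGO2 probe -3.94 and -3.92 (difference -0.02, adjusted p = 0.85). So 4 of the 6 probes passed, beside 55.6% of all kept probes. All 4 were steeper with adenosine in Cy3, the direction in which 27.3% of kept probes passed. Of the 28 genes with a log2 ratio under -4, these 3 included, 26 were steeper that way and 22 passed in either direction. For the brightest probes of C27H8orf4, COBLL1 and AMIGO2 the difference was small beside the ratio itself. The direction was not stable: under median centring of the arrays in place of loess, the difference divided by 2 was -0.00088 for C27H8orf4, -0.13 for the second COBLL1 probe and -0.25 for the brighter AMIGO2 probe.

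Every gene was read here from its brightest kept probe. For each of the 3 genes the 5 named genes with the most similar ratios across the 4 pool pairs were picked. Similarity was measured by the root mean square (RMS) difference of log2 ratios. This measure favours genes of similar mean ratio, so other steep falls were bound to be found. For C27H8orf4 the nearest was BMP2 (RMS difference 0.67), which also had its lower ratios in pairs 2 and 4 (-6.57 and -6.81) and higher ones in pairs 1 and 3 (-5.69 and -5.93). PLIN2 (1.04), the small GTPase GEM (1.21), COBLL1 (1.45) and the chemokine receptor CXCR4 (1.5) followed.

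COBLL1 lay very close to CXCR4, with an RMS difference of 0.15. CXCR4 had pair ratios of -5.45, -5.32, -6.36 and -5.71, with pair 3 steepest as for the brightest and second COBLL1 probes. The third COBLL1 probe had pair 2 at -0.89 and pair 3 at -0.88. The other genes near COBLL1 were PLIN2 (0.54), the zinc transporter SLC39A8 (0.70), GCH1 (0.73) and BMP2 (0.80). For AMIGO2 the nearest were GCH1 (0.28), HK2 (0.37), the acyltransferase AGPAT9 (0.47), the pseudokinase TRIB1 (0.50) and the synaptotagmin SYT4 (0.53). TRIB1 had its lower ratios in pairs 2 and 4 (-5.38 and -5.21), like the brighter AMIGO2 probe, and stood at -3.88 and -4.27 in pairs 1 and 3. The second AMIGO2 probe had its lowest ratio in pair 2 (-4.42) and its highest in pair 4 (-3.70). Each pair ratio averaged both dye orientations, which differed for some of the similar genes. With adenosine in Cy5 and in Cy3 the ratios were -3.84 and -6.89 for GEM and -4.24 and -6.31 for SLC39A8. They were -3.59 and -5.80 for AGPAT9 and -4.70 and -5.77 for GCH1. HK2 (-4.89 and -4.96) differed little, and the other similar genes differed less than GCH1. These likenesses rest on 4 pairs that share arrays and are a description.

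**Figure D4:**
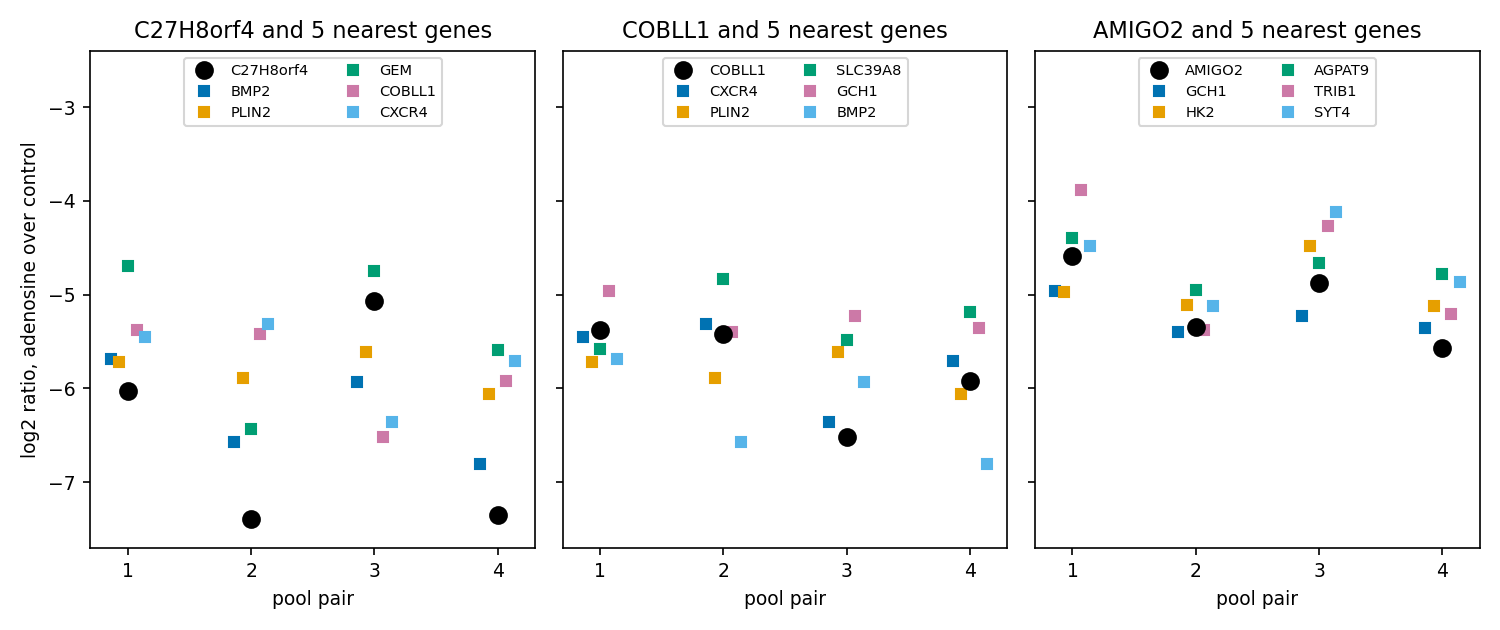
Log2 ratio of adenosine over control (y axis) in pool pairs 1 to 4 (x axis) for each of the 3 genes (black circles) and the 5 genes with the most similar ratios (coloured squares, set slightly apart sideways). Every gene is shown by its brightest kept probe. Pairs 2 and 4 lie lowest for these probes of C27H8orf4 and AMIGO2, and pair 3 lies lowest for those of COBLL1 and CXCR4.

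Relatives of the 3 genes by family or pathway were read from the fit over all kept probes (limma, Benjamini-Hochberg over 31948 probes, brightest probe of each gene). In that fit 42.4% of all genes passed, 20.8% lower and 21.7% higher with adenosine, and the median of all genes was 0.0035. Under median centring the split of probes shifted from 5955 higher and 5892 lower to 4709 and 7511.

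AMIGO2 has 2 close paralogs, which differed. AMIGO3 fell (log2 ratio -2.00 ± 0.38, SD, n = 4, limma adjusted p = 0.00227), while AMIGO1, whose measured probe was dim, had a ratio of 0.05 ± 0.11 (adjusted p = 0.474). Among 27 measured relatives of AMIGO2, membrane proteins with leucine-rich repeats, 8 fell, 3 rose and 16 did not pass, and the median was 0.0040. LRRN3 fell furthest (-4.60 ± 0.10, adjusted p = 7.45e-05), followed by FLRT3, which was named after its value was seen (-3.11 ± 0.82, adjusted p = 0.00457). Next came its paralog FLRT2, a ligand in cell guidance (-2.78 ± 0.03, adjusted p = 7.45e-05), and SLITRK2, a synaptic adhesion protein (-2.54 ± 0.42, adjusted p = 0.00164). The pool pairs of LRRN3 lay closer together than those of AMIGO2 (SD 0.10 against 0.44). The called share of this list was 40.7%, against 42.4% over all genes, and without replicate 4 the count of called members was 5 in place of 11.

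The nearest relative of COBLL1, COBL, was dim, with 1 of its 2 probes at 0.03 ± 0.02 (adjusted p = 0.361) and the other at -0.12 ± 0.10 (adjusted p = 0.106). Of 43 measured COBL relatives and actin nucleation genes 9 fell, 8 rose and 26 did not pass, with a median of -0.01 and a called share of 39.5%. WASF1, an activator of the Arp2/3 complex, fell (-2.29 ± 0.37, adjusted p = 0.00163), as did PACSIN2, which bends membranes (-1.29 ± 0.16, adjusted p = 0.00106), and the actin nucleator SPIRE1 (-0.90 ± 0.20, adjusted p = 0.00334). The formin FMNL1 rose (0.78 ± 0.17, adjusted p = 0.00307). Without replicate 4 the called members numbered 10 in place of 17, and 11 in the unpaired fit.

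For C27H8orf4 the list held the Wnt and beta-catenin pathway, with 41 measured genes, of which 10 fell, 2 rose and 29 did not pass (median -0.04, called share 29.3%). CBY1, which encodes Chibby, the binding partner of TC-1 in human cells, rose (0.77 ± 0.26, SD, n = 4, adjusted p = 0.00868), but missed the threshold in the unpaired fit (adjusted p = 0.206, where the alternatives ran from 0.000778 to 0.206). TCF7, a transcription factor that beta-catenin joins, fell (-1.33 ± 0.02, adjusted p = 0.000177), as did the corepressor TLE1 (-2.06 ± 0.23, adjusted p = 0.000846). CSNK1A1, a kinase that marks beta-catenin for degradation, fell (-1.33 ± 0.23, adjusted p = 0.00193), and so did AXIN2, a scaffold for that step and itself a Wnt target (-0.81 ± 0.17, adjusted p = 0.00285). CTNNB1, which encodes beta-catenin and was named after its value was seen, had a ratio of -0.39 ± 0.59 (adjusted p = 0.291). Without replicate 4, and also in the unpaired fit, 7 members passed in place of 12.

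Phosphoinositide and AKT signalling, to which AMIGO2 is tied in human endothelial cells through binding of the kinase PDPK1, had 22 measured genes, of which 7 fell, 2 rose and 13 did not pass (median -0.02, called share 40.9%). TRIB3, a pseudokinase that binds AKT, fell (-1.93 ± 0.30, adjusted p = 0.00149), and FOXO1, a transcription factor that AKT inhibits, had a ratio of -1.60 ± 0.52 (adjusted p = 0.00751). PIK3CA, a catalytic subunit of phosphoinositide 3-kinase, fell by 0.82 ± 0.10 (adjusted p = 0.00112). MTOR had a ratio of -0.40 ± 0.06 (adjusted p = 0.00205) and missed the threshold in the unpaired fit (adjusted p = 0.523, where the alternatives ran from 0.00158 to 0.523). The probe of PDPK1, named after its value was seen, was dim and stood at 0.0073 ± 0.0378 (adjusted p = 0.851). In the unpaired fit and without replicate 4 alike, 5 members passed in place of 9.

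**Figure D5:**
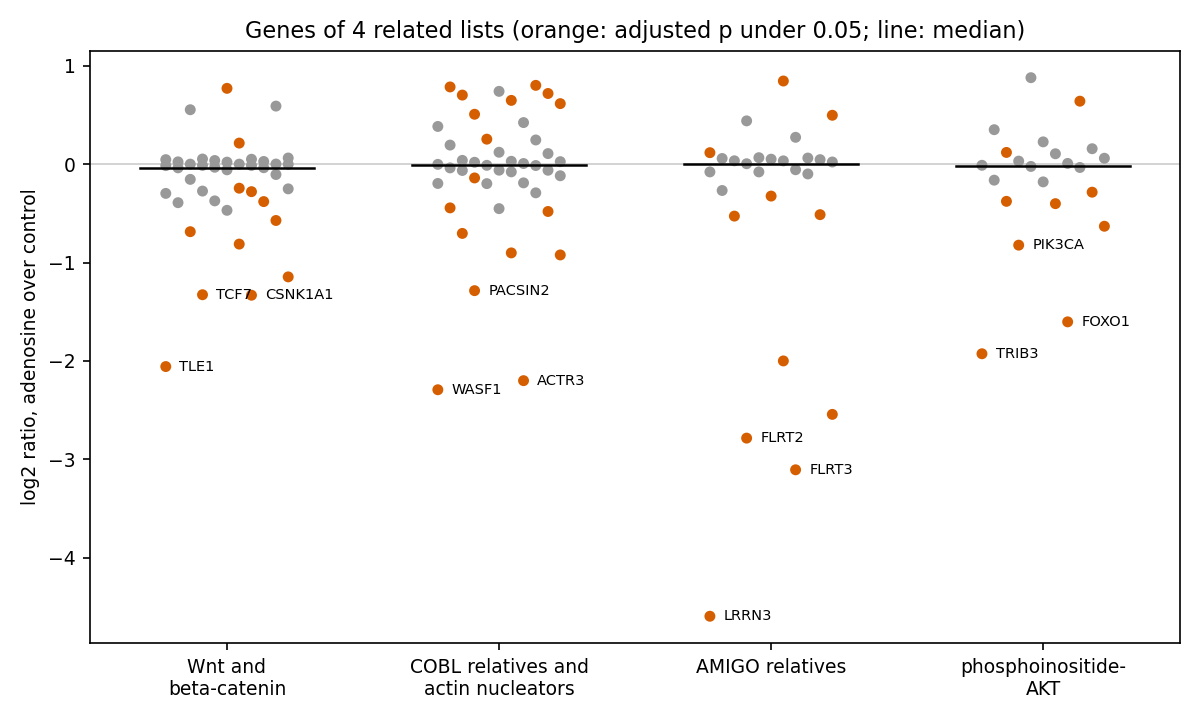
Log2 ratio of adenosine over control (y axis) for the measured genes of the 4 lists (x axis), with genes at an adjusted p under 0.05 in orange, others in grey, a line at each median and the 3 lowest genes of each list named. LRRN3 at -4.60 lies far below the other genes shown, and all 4 medians lie within 0.04 of 0.

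The genes next to C27H8orf4, COBLL1 and AMIGO2 in a RefSeq gene table for Bos indicus were also read, 3 on each side. C27H8orf4 is not listed there under that symbol and was placed through TCIM. Of the 18 neighbours 5 had a measured probe, and 1 of these passed, beside 42.4% of all genes. GRB14, an adaptor of insulin and growth factor receptors that lies near COBLL1, rose (1.15 ± 0.42, SD, n = 4, adjusted p = 0.0103), but missed the threshold without replicate 4 (1.06, adjusted p = 0.0558, where the alternatives ran from 0.000599 to 0.0558). The others were SLC38A11 (0.0011 ± 0.0306, adjusted p = 0.976) and FIGN (-0.0049 ± 0.0127, adjusted p = 0.877) near COBLL1, IDO1 (-0.02 ± 0.07, adjusted p = 0.762) near C27H8orf4 and SLC38A4 (0.03 ± 0.03, adjusted p = 0.318) near AMIGO2. None of these others passed a stricter detection filter (4 SD, both arrays of all 4 pools), which GRB14 passed. Whether a fall could have been seen in them was not tested. Overlaps with other annotated genes were looked up only for the 3 genes and for some of the named relatives and neighbours. AMIGO2 overlaps PCED1B in that table, and GRB14, AMIGO3, LRRN3, FLRT2, WASF1 and SPIRE1 overlap other annotated genes. Whether their probes also read the overlapping transcripts was not tested, so the values of these genes are uncertain to that extent.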

How the data were processed

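The authors' deposited scanner files give, per the file headers, raw mean foreground and median local background intensity of 45220 spots at 532 nm and 635 nm, read here as Cy3 and Cy5, neither background-subtracted nor normalized. The authors' deposited log2 ratios, normalized in a way not given in the sources used here, served as an alternative. They correlated between 0.928 and 0.97 with the ratios computed here, array by array across kept probes, which settled their direction. Amplification by 2 rounds of T7 transcription and chemical labelling are per the labels' protocols.

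Background was corrected with normexp (offset 50) and arrays normalized by loess with the 1426 other spots at weight 0 (limma 3.58.1, R 4.3.3). Every ratio was expressed as adenosine over control and averaged over both arrays of its pair. Detection meant a foreground over 2 SD above the mean of 153 negative controls, and kept probes were detected in both arrays of at least 3 pools of either group. Pair means, and orientation differences divided by 2, were tested against 0 with lmFit and eBayes, adjusted by Benjamini-Hochberg over 31948 probes (threshold 0.05). The fits were run on simulated data with planted differences and independent noise for each probe. That setting does not cover noise shared between probes or an array of low detection. Same-numbered pools share an array, and deviations of same-numbered arrays correlated between 0.763 and 0.925, with 8 of 8 best with their own number.

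Gene names came from the platform's old annotation (21790 probes with 1 symbol, 22004 with none). The genes, lists, the 5 nearest genes and the 4 members with the smallest p named from each list were chosen with earlier results of these data known. Alternatives were the background correction, normalization, filter, left-out replicates, orientation, pairing, probe rule and authors' values, and, added after seeing the data, pair 3 without 1 array. The planned promoter motif search was not run, since no sequences were used here. The number of arrays limits the precision.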

Additional observations from a re-analysis of the deposited data

Results flagged for a closer look

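The adenosine level of the second COBLL1 probe was lower in pool 1 (6.99) than in the other pools, which lay between 7.10 and 7.12. It was the only one of 18 groups of 4 values examined for the 6 probes with a gap above Dixon's 95% critical value, and chance gives about 1 in 20. In 4 probes the ratio with adenosine in Cy5 minus that in Cy3 passed the test of the difference, at 0.65 for C27H8orf4, 0.47 and 0.12 for the COBLL1 probes EMBV3_07886 and EMBV3_39452 and 0.23 for the brighter AMIGO2 probe. Of all kept probes 55.6% passed that test.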

How the results depend on the processing

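All 6 probes of the 3 genes were lower with adenosine under every alternative run. With an offset of 0 the ratios moved beyond the SD to -6.54, -2.75 and -1.53 for COBLL1 and to -5.89 and -4.99 for AMIGO2. COBLL1's dimmest probe stood at -0.95 without background subtraction and -1.29 in the authors' values, and the second AMIGO2 probe at -4.26 under median centring and -4.47 in the authors' values. The mean of kept probes gave -2.89 for COBLL1 and -4.51 for AMIGO2. Leaving out 1 replicate gave -6.92 to -6.15 for C27H8orf4, -5.95 to -5.57, -2.18 to -1.97 and -0.84 to -0.77 for COBLL1, and -5.26 to -4.94 and -4.01 to -3.77 for AMIGO2.

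The contrast called 11847 probes, between 6568 (without replicate 4) and 9688 with 1 replicate left out, 10823 with pair 3 from its Cy5 array alone, 11847 with the replicate block on single-channel levels and 7497 with no replicate block. Without the block the called members were 7 for Wnt, 11 for actin nucleation, 7 for AMIGO relatives and 5 for AKT signalling. With 1 replicate left out they ranged from 7 to 11, from 10 to 16, from 5 to 9 and from 5 to 8. Without the block MTOR and CBY1 lost their calls, and the other list members and neighbours chosen by the naming rule did not change theirs. CTNNB1, PDPK1 and FLRT3 were not run under the alternatives.

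The orientation term called 17769 probes, 9512 with the stricter filter (fewer probes tested), 7532 in the authors' values, and 14105 to 16046 with 1 replicate left out. The orientation difference divided by 2 turned sign for COBLL1's brightest probe without background subtraction (-0.076), under median centring (-0.32) and in the authors' values (-0.19), where it passed in the turned direction, and with an offset of 0 (-0.04), where it did not pass. It did so for AMIGO2's brighter probe without background subtraction (-0.00017) and under median centring (-0.25), for C27H8orf4 under median centring (-0.00088) and in the authors' values (-0.051), neither of which passed, and for the other COBLL1 probes under median centring (-0.13 and -0.17). AMIGO2's second probe turned to 0.04 without replicate 3 and to 0.0016 without replicate 4, passing in neither. The cause was not tested. COBLL1's dimmest probe did not pass without replicate 1, 2 or 4, nor AMIGO2's brighter probe without replicate 2, and neither passed with an offset of 0, without background subtraction or in the authors' values. AMIGO2's second probe passed without background subtraction, under median centring and in the authors' values.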
